A study of Mus musculus with 4 samples.

Results

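Activin and bone morphogenetic protein (BMP) signalling was followed through 9 genes in maps of H3K36me2, the dimethyl mark on lysine 36 of histone H3. These were the ligand subunit genes Inhba and Inhbb, the activin receptor genes Acvr1, Acvr1c, Acvr2a and Acvr2b, and the BMP receptor genes Bmpr1a, Bmpr1b and Bmpr2. Every peak that touched a gene body or the 200 kb on either side was taken, with the stretch of chromosome 13 from 16 to 17 Mb that begins at Inhba added. This gave 27 of 7699 peaks with melatonin and 32 of 8361 peaks without it near the genes. With the added megabase of chromosome 13 the numbers were 39 and 73. The 9 genes stand among 21883 protein-coding genes of the mouse RefSeq table, and all positions are on GRCm38.

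The cells came from mouse bone marrow and were mesenchymal stem cells (MSCs), which can give rise to osteoblasts, adipocytes and chondrocytes, kept in DMEM with serum. Melatonin, the pineal hormone, was given at 1 µM for 24 hours to the cells of 1 ChIP library, and the cells of the other were untreated. Each had its own input library made without antibody. The labels give no strain, sex, passage or number of animals, and the series' design text speaks of old donors. They repeat the melatonin protocol on the untreated samples, whose condition was read from the treatment label. With 1 ChIP library per condition there was no test, and every difference below is between these 2 libraries.

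Activins are dimers of inhibin beta chains. They bind a type II receptor such as the product of Acvr2a or Acvr2b, which then activates a type I receptor. BMPs signal through a like pair, Bmpr2 or an activin type II receptor joined with type I receptors such as those of Acvr1, Bmpr1a and Bmpr1b. Both branches pass the signal to SMAD proteins. BMP signalling drives progenitors of the marrow toward bone, and activin A is known as a regulator of bone cells. H3K36me2 is laid down by methyltransferases including NSD2, the enzyme in the study's title, and is usually spread over broad domains within and between genes.

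Tags counted by the peak finder came to 14180076.5 with melatonin and 13198427.5 without. A peak window needed 18 and 17 tags, which is 12.7 and 12.9 tags per 10000000. The authors' scaling of ChIP to input implies input depths of about 12300000 tags with melatonin and 16900000 without. The part of this gap in the results was not tested. By the peak finder's own estimate, 1.12% of tags with melatonin and 1.24% without lay in called peaks. Tags outside peaks were not analysed here, so a site without a called peak may still carry the mark. Among marker genes fixed for a check of the label, 7 and 8 of 9 stromal genes, 2 and 2 of 5 macrophage genes and 4 and 4 of 4 endothelial genes had a melatonin and an untreated peak within 200 kb, against 43.9% and 39.3% of all protein-coding genes. Peaks do not measure expression, so they do not check the cell type.

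The promoters of Inhba and Acvr2a are shown because these genes had the most peaks around them. Distances to a gene below are from the nearest edge of its body. Each run is the 250 bases before the start site, on the plus strand, from RefSeq on GRCm38.p6, with every CG pair in capitals. Inhba lies at chr13:16011601-16011850 and Acvr2a at chr2:48813859-48814108.
Inhba: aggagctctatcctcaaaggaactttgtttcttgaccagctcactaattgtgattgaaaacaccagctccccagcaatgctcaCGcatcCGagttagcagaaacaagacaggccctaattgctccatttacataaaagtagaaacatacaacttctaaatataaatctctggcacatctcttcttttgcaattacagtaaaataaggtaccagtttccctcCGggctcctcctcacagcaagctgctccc
Acvr2a: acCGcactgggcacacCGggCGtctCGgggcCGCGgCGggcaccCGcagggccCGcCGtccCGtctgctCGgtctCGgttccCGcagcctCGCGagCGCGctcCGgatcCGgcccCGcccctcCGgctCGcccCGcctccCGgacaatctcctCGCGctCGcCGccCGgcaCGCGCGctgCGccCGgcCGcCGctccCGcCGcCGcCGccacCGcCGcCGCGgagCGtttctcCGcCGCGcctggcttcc

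The Inhba promoter holds 3 CG pairs and the Acvr2a promoter holds 49. The motif CG reads the same on both strands, and 92.1% of 32851 RefSeq promoters of this length hold at least 1, with a median of 6. As many as in Inhba were found in 71% of promoters, and as many as in Acvr2a in 0.146%. None of the 12 listed promoters of the 9 genes was touched by a peak in either library. The share of all promoters touched by a peak is not given here, so no trait of these genes is read from that. From the Inhba promoter it was 28.5 kb to the nearest melatonin peak and 36.5 kb to the nearest untreated one, and from the Acvr2a promoter 2.67 kb and 35 kb. These letters say nothing of what binds there.

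In the body or within 200 kb, melatonin peaks were found at 7 of the 9 genes and untreated peaks at 8. The same rule was met by 43.9% of all protein-coding genes with melatonin and 39.3% without. The members are longer than most genes, with a median body of 90.4 kb against 17.2 kb, and Acvr1 and Acvr1c are neighbours whose windows share peaks. The same 7 genes had peaks of both libraries, which 27.8% of all genes had. Bmpr1a had untreated peaks alone, as did 11.5% of all genes, and Acvr2b had none, like 44.6% of all genes. The median number of peaks per member was 3 with melatonin and 2 without, against 0 and 0 over all genes, whose means were 1.05 and 0.987.

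**Figure D1:**
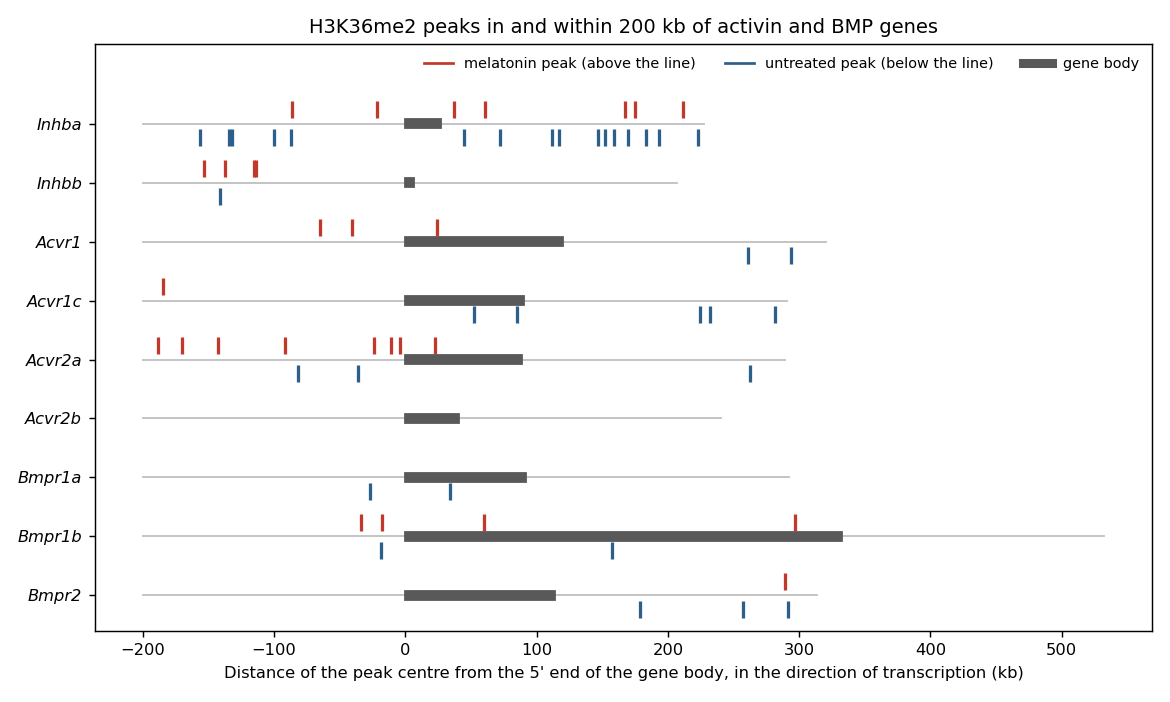
Peaks in and within 200 kb of the 9 genes, as distance in kb from the start of the gene body in the direction of transcription, with melatonin peaks above and untreated peaks below each line and gene bodies as grey bars. Melatonin peaks are densest before Acvr2a (7 upstream) and untreated peaks around Inhba (16), while Acvr2b has none.

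The ratio of melatonin to untreated peaks near the members was 0.844 (exact 95% interval 0.486 to 1.45), with 0.921 (0.893 to 0.95) over the whole lists. Such intervals allow for counting error alone. PCR copies of a molecule were not examined, and the clonal score given with each peak was not used. Inhba alone gave 7 and 16 peaks, and the 8 other genes gave 20 and 16, a ratio of 1.25 (0.615 to 2.58). This split was made after the values were seen. The ratio also crossed 1 with Inhba kept in. It was 1.07 with a flank of 100 kb (16 and 15 peaks). With each list cut to its 3849 peaks of lowest p, it was 1.07 (16 and 15). At a fold over input of at least 6, it was 3.67 (11 and 3). The direction thus depended on Inhba, on the flank, on the fold required and on the cut by p.

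**Figure D2:**
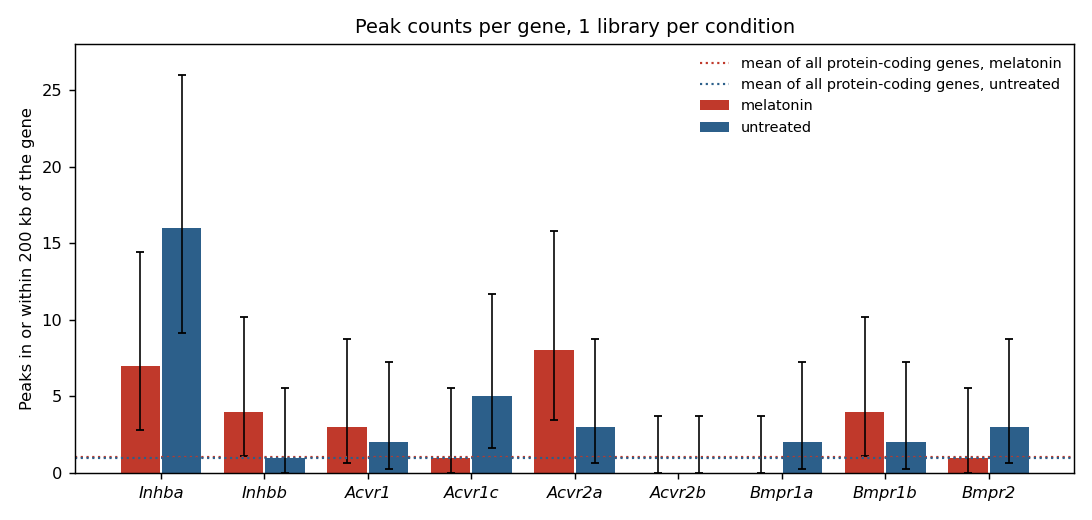
Peaks in or within 200 kb of each gene, with melatonin in red and untreated in blue, bars from 0 with exact 95% Poisson intervals that cover counting error only, and dotted lines at the means of all protein-coding genes (1.05 and 0.987). Inhba had 7 peaks with melatonin and 16 without, and Acvr2a had 8 and 3.

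Among the ligand subunit genes, Inhba had more untreated than melatonin peaks around it. Inhba encodes the beta A chain, which pairs with itself to form activin A, and covers 27.4 kb on the plus strand of chromosome 13 (16004256 to 16031609). Its window held 7 melatonin peaks (95% Poisson interval 2.81 to 14.4) and 16 untreated peaks (9.15 to 26), a ratio of 0.438 (0.152 to 1.12), whose interval includes 1. At a fold over input of 6 or more the larger count was with melatonin. Those melatonin folds were 8.04, 7.39 and 6.26, and the untreated ones 6.7 and 6.02. As many untreated peaks or more were counted at 0.215% of all protein-coding genes. The members were chosen with earlier results of these data known, so this share is a description. No peak of either library lay in the gene body or in its 2 kb flanks.

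The melatonin peaks of Inhba were split into 2 upstream and 5 downstream of the gene, and the untreated peaks into 5 upstream and 11 downstream. The melatonin peak nearest to the gene began 9.33 kb beyond its end, at 16040939 to 16041939, with a normalized tag count of 16.2, 4 input tags and a fold over input of 5. It spans Gm22628, an annotated small nuclear RNA gene. The next were at 15982073 to 15983073, 21.2 kb upstream (fold 8.04), and at 16064594 to 16065594, 33 kb downstream (fold 7.39). Fold and tags are the authors' values for each peak, and tags without a further word are normalized to 10000000 tags of the library.

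The untreated peak nearest to Inhba began 16.7 kb beyond the gene, at 16048322 to 16049322, with 12.1 tags, 3.9 input tags and a fold of 4.1. Others followed at 44.2 kb (16075839 to 16076839, fold 4.7) and 84.1 kb (16115675 to 16116938, fold 4.61). The strongest by tags were upstream, inside the transcribed pseudogene B230303A05Rik (15813552 to 16023423), which overlaps the start of Inhba. They were at 15846792 to 15848712 with 26.1 tags and at 15903251 to 15904508 with 25.8 tags. That pseudogene held 2 melatonin and 5 untreated peaks.

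The libraries shared 1 site in the Inhba window. The melatonin peak at 15917645 to 15918645 (fold 4.57) and the untreated peak at 15916550 to 15918056 (fold 4.81) overlapped by 411 bp. Neighbouring peaks in the window began a median of 47.8 kb apart with melatonin and 14.3 kb apart without. At the edge of the window, the outermost peak inside was an untreated one 195 kb beyond the gene, and the next outside were a melatonin peak at 225 kb and one of each library at 228 kb.

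Inhbb had 4 melatonin peaks and 1 untreated peak, all upstream. It encodes the beta B chain of activin B, and covers 6.79 kb on the minus strand of chromosome 1 (119415463 to 119422248). The nearest melatonin peaks lay 113 and 114 kb from the gene, at 119535304 to 119536304 in the noncoding gene 3830432H09Rik (fold 6.78, 13.8 tags) and 119536743 to 119537743 (fold 7.61, 12.3 tags). Another at 119558909 to 119560196 had a fold of 7.48 and lay in Epb41l5, a neighbouring protein-coding gene. The single untreated peak, at 119562917 to 119563917 (fold 4.19, 13.6 tags), was in Epb41l5 too, 2.72 kb from that peak. The interval of the ratio, 0.396 to 197, is too wide to order the libraries.

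Of the type I receptor genes, Acvr1 had a called peak inside the gene with melatonin and Acvr1c without it. Acvr1 encodes a type I receptor that mainly carries BMP signals, and lies on the minus strand of chromosome 2 (58446438 to 58566828). Acvr1c, whose product is a receptor for activin B and nodal known from fat cells, lies beside it on the same strand (58267453 to 58357896). With the 2 kb flanks added, gene bodies held a melatonin peak in 5.93% of all protein-coding genes and an untreated peak in 5.71%. Melatonin alone made up 3.19%, untreated alone 2.96% and both together 2.75%. These shares were not adjusted for body length, which is 120.4 kb for Acvr1 and 90.4 kb for Acvr1c against a median of 17.2 kb.

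Acvr1 had 3 melatonin peaks in its window. One lay in the body at 58542049 to 58543049, 23.8 kb from the start site, with 13 tags, 2 input tags and a fold of 8.04. Upstream peaks at 58606749 to 58607749 (fold 4.13) and 58631089 to 58632089 (fold 4.64) both fell in Upp2. The 2 untreated peaks of this window were those in the body of Acvr1c.

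Acvr1c had 1 melatonin peak, the one in Acvr1 184 kb away, and 5 untreated peaks, of which 2 lay in its body and 3 downstream. The first body peak, at 58272294 to 58273714, had 22.7 tags, 7 input tags and a fold of 4.27. The second, at 58305372 to 58306372, had 14 tags, 3.1 input tags and a fold of 5.93. The nearest of the others lay 134 kb downstream at 58132647 to 58133647 in Cytip (fold 5). Over the joint stretch of 0.699 Mb the libraries had 3 and 5 peaks. None overlapped, where 6.12% and 5.60% of the whole lists did, and the closest of opposite libraries were 236 kb apart.

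Bmpr1a had no melatonin peak in its window and 2 untreated peaks. It encodes a type I BMP receptor needed in bone-forming cells, and lies on the minus strand of chromosome 14 (34411061 to 34503336). The untreated body peak at 34468335 to 34469795 had 17 tags, 5.1 input tags and a fold of 4.44. The other, 26.1 kb upstream at 34529413 to 34530961 in Ldb3, had 21.2 tags, 6.2 input tags and a fold of 4.49. The nearest melatonin peak on the chromosome was 2361 kb from the gene. With 0 melatonin and 2 untreated peaks, the upper end of the ratio's interval was 5.32, so these counts are too few to order the libraries.

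Bmpr1b, which encodes a type I BMP receptor known for its part in cartilage formation, was the only member with body peaks of both libraries. It covers 332 kb on the minus strand of chromosome 3 (141837135 to 142169585) and had 4 melatonin and 2 untreated peaks. Its melatonin body peaks were at 141872259 to 141873259 (fold 8.48, 13.8 tags, 2 input tags) and 142108801 to 142109801 (fold 4.72, 13.4 tags). The untreated body peak, at 142011634 to 142012634 (fold 4.63, 17.8 tags), lay 96.2 kb from the nearest melatonin peak.

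A site upstream of Bmpr1b was called in both libraries, 17.3 kb from the gene with melatonin and 17.9 kb without. The melatonin peak at 142186911 to 142187911 (fold 5.36, 13 tags) and the untreated peak at 142187450 to 142188450 (fold 4.7, 16.7 tags) overlapped by 461 bp. A further melatonin peak was at 142202677 to 142203677 (fold 4.72). The gene's listed start sites lie inside the gene body, the nearest of them 205 kb from the shared site.

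Among the type II receptor genes, Acvr2a had the most melatonin peaks of any member. It encodes the main activin type II receptor and lies on the plus strand of chromosome 2 (48814109 to 48903264). Its window held 8 melatonin peaks (95% Poisson interval 3.45 to 15.8) and 3 untreated peaks (0.619 to 8.77), a ratio of 2.67 (0.64 to 15.6), whose interval includes 1. At 1.65% of all protein-coding genes the melatonin count was 8 or more, which is a description too.

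Of the melatonin peaks of Acvr2a, 7 lay upstream and 1 in the body. The nearest upstream peak ended 2.92 kb before the start site, at 48809564 to 48811190, with 20.5 tags, 4 input tags and a fold of 6.3. It overlaps the pseudogene Gm13489. The next, at 48802620 to 48804239, ended 9.87 kb before the gene with 19 tags and a fold of 4.7. The body peak at 48836534 to 48837534 had 12.3 tags, 1.5 input tags and a fold of 10.1, the highest fold near any member.

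The nearest untreated peak of Acvr2a lay farther from the gene than the nearest melatonin peaks. The 3 untreated peaks were 35.3 kb upstream at 48777823 to 48778823 (fold 5.55, 14.8 tags), 81.1 kb upstream at 48732058 to 48733058 (fold 4.49, 13.3 tags) and 173 kb downstream at 49075850 to 49076850 in Mbd5 (fold 7.69, 13.6 tags). None overlapped a melatonin peak, where 5.60% of all untreated peaks did, and the closest pair was 8.76 kb apart.

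Acvr2b and Bmpr2 had no peak in the gene or its 2 kb flanks. Acvr2b, the second activin type II receptor gene (chromosome 9, 119401583 to 119442148), had its nearest peaks at 423 kb with melatonin and 1250 kb without. Bmpr2 encodes the BMP type II receptor (chromosome 1, 59764279 to 59878081). It had 1 melatonin peak, 175 kb downstream at 60052793 to 60054051 (fold 5.33, 17.3 tags). Its 3 untreated peaks were downstream at 64.3 kb (59942367 to 59943367 in Fam117b, fold 5.7), 143 kb (60020807 to 60021807 in Ica1l, fold 5.13) and 177 kb (60054922 to 60055922, fold 4.49). The last lay 871 bp from the melatonin peak without touching it.

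By role, the ligand subunit genes had 11 melatonin and 17 untreated peaks, the type I receptor genes 7 and 9, and the type II receptor genes 9 and 6. The ratios were 0.647 (0.274 to 1.46), 0.778 (0.246 to 2.35) and 1.5 (0.477 to 5.12), and every interval included 1. In the gene bodies and 2 kb flanks, melatonin peaks were at Acvr1, Acvr2a and Bmpr1b, and untreated ones at Acvr1c, Bmpr1a and Bmpr1b. That is 3 of 9 members in each library, where 5.93% and 5.71% of all protein-coding genes met this rule. The shares were not adjusted for body length, whose median was 90.4 kb for the members and 17.2 kb for all genes.

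Peaks near the members were called at the same sites in 2 cases, near Inhba and near Bmpr1b. These were 2 of 27 melatonin and 2 of 32 untreated peaks, where 6.12% and 5.60% of the whole lists overlapped. The melatonin peaks had a median fold over input of 5.33 (range 4.02 to 10.1) and the untreated peaks 4.64 (4.04 to 7.69). The medians of the whole lists were 5.11 and 4.87. A fold of 6 or more was reached by 11 of 27 melatonin peaks (40.7%, exact 95% interval 22.4 to 61.2) and 3 of 32 untreated peaks (9.38%, 1.98 to 25). In the whole lists 30.1% and 24.1% did so.

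ChIP and input tags both differed between the libraries at these peaks. The median normalized tag count was 13.4 with melatonin and 14.6 without, and input came to 2.96 and 3.86 scaled tags per kb of peak. Over the whole lists input came to 3.04 and 3.48 tags per kb. The deposited input values are scaled to different depths in the 2 lists, and the part of this in the folds was not tested. Peaks of the smallest width, 1000 bp, made up 20 of 27 (74.1%) and 22 of 32 (68.8%), against 79.2% and 79.6% of the whole lists. The widest measured 1626 and 1920 bp, against 3064 and 4345 bp in the whole lists.

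**Figure D3:**
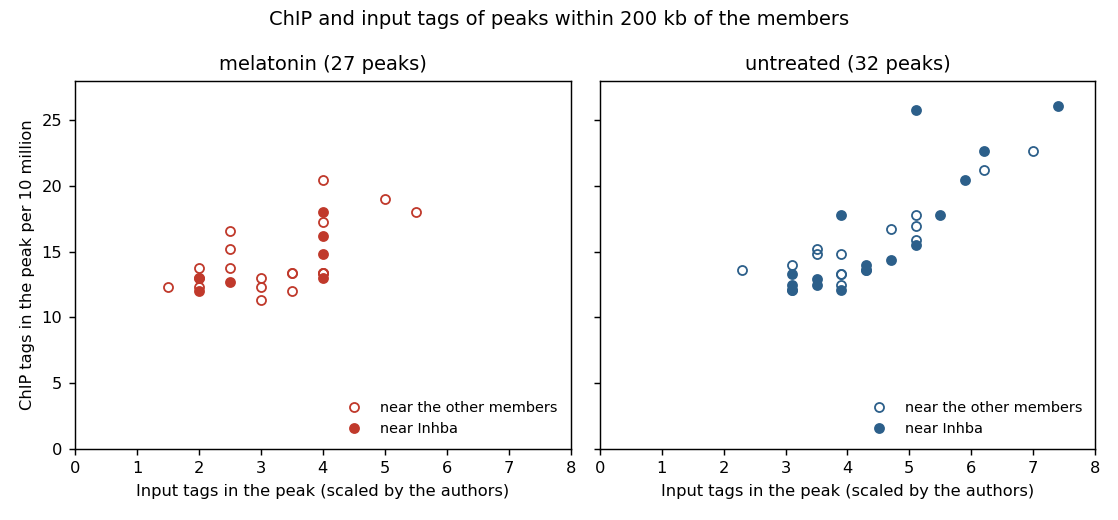
ChIP tags normalized to 10000000 tags of the library, on the y axis, against input tags on the authors' other scale, on the x axis, for each peak within 200 kb of the 9 genes, with filled points for Inhba and open points for the others. Normalized tags reach 20.5 in the melatonin panel, at Acvr2a, and 26.1 in the untreated panel, near Inhba.

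The megabase that begins at Inhba held 17 melatonin peaks (95% Poisson interval 9.9 to 27.2) and 52 untreated peaks (38.8 to 68.2). The ratio was 0.327 (0.177 to 0.575). Counting only peaks whose fold was 6 or more, it was 0.714, from 10 and 14 peaks, which were 58.8% of the melatonin and 26.9% of the untreated peaks. This stretch was chosen because an earlier look at the same lists had found a low ratio there, so the value is a description. Of 185 windows of 1 Mb with 20 or more peaks, 3 had a ratio as low or lower, this one included, and the median was 0.867. In 13.5% of them untreated peaks were at least 2 times as many as melatonin peaks, and in 2.70% the reverse held. Of 2634 windows, 3 held 52 or more untreated peaks, this one among them, while 56 held 17 or more melatonin peaks.

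**Figure D4:**
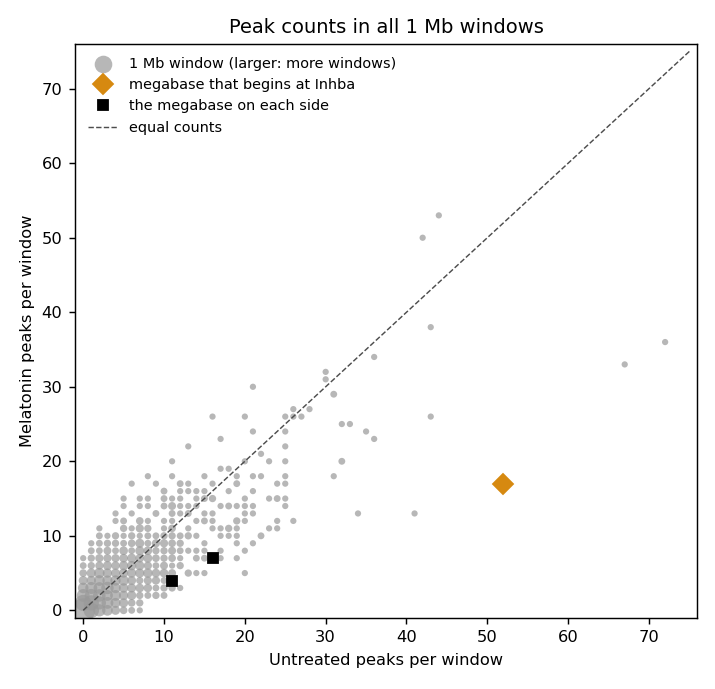
Melatonin peaks against untreated peaks in every 1 Mb window, with point size growing with the number of windows, the Inhba megabase as a diamond (17 and 52), the megabases on each side as squares, and equal counts as a dashed line. The diamond lies below the line and apart from most windows.

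More untreated than melatonin peaks were also counted in the megabase on each side. From 15 to 16 Mb there were 4 melatonin and 11 untreated peaks, and from 17 to 18 Mb there were 7 and 16. These counts are small, and the same 7 and 16 at Inhba gave a ratio whose interval includes 1. Beyond that, 18 to 19 Mb held none in either library and 14 to 15 Mb held 2 and 1. The rise in peak number over the neighbouring megabases was thus seen in both libraries.

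Of the peaks from 16 to 17 Mb, 8 of 17 with melatonin and 39 of 52 without lay in no annotated gene. The share of all peaks in no annotated gene is not given here, so no trait of this stretch is read from these counts. The 826 kb between the end of Inhba and the near edge of Sugct (16031610 to 16857471) holds no protein-coding gene and had 14 melatonin and 47 untreated peaks, a ratio of 0.298 (0.151 to 0.55). Sugct, a large gene for a mitochondrial enzyme (16857472 to 17694795), held 10 and 20 in its body, a ratio of 0.5 (0.209 to 1.12). An untreated peak at 16855727 to 16857544 lies across the edge of Sugct and counts in both stretches. The long noncoding RNA gene Gm31711 (16151561 to 16261349), within the 826 kb, held 5 and 7. The pseudogenes Gm6562 and Gm7537 held none.

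Counted by peak centres in 100 kb steps, the libraries had equal counts in 2 steps and more untreated peaks in all others. There were 2 and 2 peaks from 16 to 16.1 Mb and 4 and 4 from 16.2 to 16.3 Mb. Between these, 16.1 to 16.2 Mb held 2 and 8. Farther on, 16.7 to 16.8 Mb held 2 and 3. From 16.5 to 16.6 Mb there were 1 and 8, and from 16.6 to 16.7 Mb 0 and 6. Over the first 500 kb the counts were 11 and 25, and over the remaining 500 kb they were 6 and 27.

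Spacing followed the counts. Starts of neighbouring peaks lay a median of 38 kb apart with melatonin (3.03 to 194) and 14.3 kb apart without (1.65 to 61.4). Spacings under 10 kb were 2 of 16 with melatonin and 20 of 51 without. The widest stretch without a melatonin peak ran over 193 kb from 16537359 to 16730773 and held 13 untreated peaks. The widest without an untreated peak ran from 16751932 to 16812330.

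Single peaks of this megabase were close in tags between the libraries, while their folds were higher with melatonin. The median was 13 tags with melatonin (12 to 33.9) and 14.2 without (11 to 30.3). The peaks covered 20.3 kb and 60 kb, and per kb of peak they held 13.3 and 13.5 tags, where all peaks of the lists held 13.3 and 13.6. The median fold was 6.26 (4.02 to 15.2) with melatonin and 5.31 (4.01 to 12.8) without. The tags in the best window of a peak had a median of 19 with melatonin and 18 without, just above the required 18 and 17.

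The highest folds with melatonin were 15.2 at 16334065 to 16335065, 11.6 at 16497567 to 16498567 and 10.1 at 16877008 to 16878008, on 1, 1.5 and 1.5 input tags. Without melatonin they were 12.8 at 16720996 to 16721996, 10.8 at 16855727 to 16857544 and 9.93 at 16952276 to 16953276, on 1.6, 2.7 and 1.6 input tags. The last melatonin peak and the last 2 untreated ones touch Sugct. No site of these 6 was shared, where 6.12% and 5.60% of the whole lists overlapped. Such folds rest on few input tags.

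Shared sites in the megabase numbered 2. At the end of Gm31711, the melatonin peak at 16259856 to 16260856 (fold 6.43) and the untreated peak at 16259556 to 16260556 (fold 4.1) overlapped by 700 bp. Farther on, the melatonin peak at 16354967 to 16355967 (fold 4.02) met the untreated peak at 16355879 to 16356879 (fold 4.08) over 88 bp. A further pair, at 16274316 to 16275680 with melatonin and 16273129 to 16274129 without, stopped 187 bp short of each other. The overlapping peaks were 2 of 17 with melatonin and 2 of 52 without, where 6.12% and 5.60% of the whole lists overlapped.

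**Figure D5:**
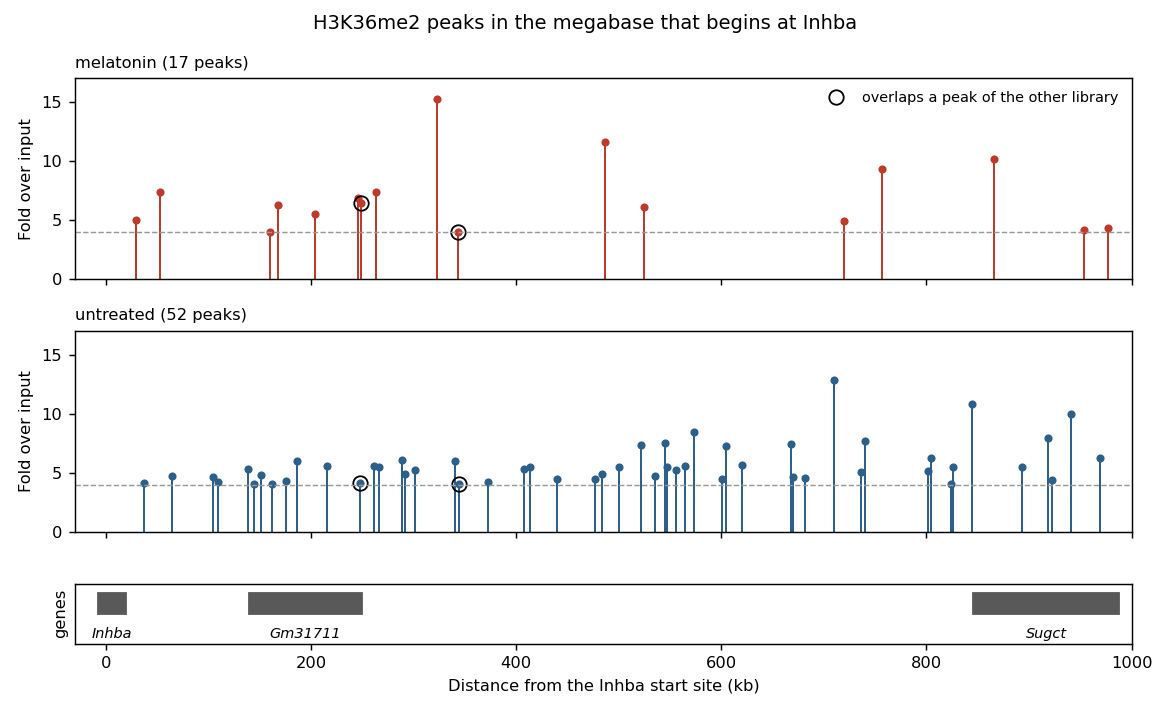
Fold over input of each peak in the megabase that begins at Inhba, by distance in kb from the Inhba start site, with melatonin above, untreated below and genes at the bottom. The dashed line marks the required fold of 4 and circles mark the 2 overlapping pairs. In the widest stretch without a melatonin peak, 193 kb long, untreated peaks continue.

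Genes elsewhere with counts closest to those of Inhba, by the summed difference of the 2 counts within 200 kb, were Il1rl2, an interleukin receptor gene (7 and 16), Lekr1 (6 and 16), Angpt1, an angiopoietin gene (9 and 16), Cacna2d1, a calcium channel subunit gene (6 and 15), and Ccn2, a matrix-associated growth factor gene (7 and 18). They differ from Inhba by 0, 1, 2, 2 and 2 peaks over 2 libraries. Within 5 peaks there were 59 of 19808 genes considered.

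Other genes of activin, BMP and TGF-beta signalling, 75 in all, were read by the same windows. A melatonin peak lay in the body or 2 kb flanks of 1 of 75 genes (1.33%, against 5.93% of all genes), and an untreated peak in 4 (5.33%, close to the 5.71% of all genes). Bmper on chromosome 9, which encodes a secreted BMP modulator, had both. Its melatonin peak was at 23356918 to 23357918 (fold 5.36) and its untreated peak at 23361543 to 23362543 (fold 4.98). Lefty1, a nodal inhibitor gene (fold 5.61), Gdf3, a ligand gene (fold 6.23), and Smad9, a BMP signal carrier gene (fold 5.29), had an untreated peak alone.

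Within 200 kb, melatonin peaks were found at 44 of the 75 genes (58.7%) and untreated peaks at 39 (52%), against 43.9% and 39.3% of all genes, with a median of 1 and 1. More melatonin than untreated peaks were counted at 25 genes and fewer at 17, where 25.6% and 20.9% of all genes did so. Among 11 other receptor and co-receptor genes, 10 had a melatonin peak (90.9%, above the share of all genes) and 4 an untreated peak (36.4%, near that share). Of these, Acvr1b and Acvrl1 are neighbours on chromosome 15 with overlapping windows and 1 melatonin peak each. The 11 genes had a median body of 36.1 kb, against 17.2 kb for all genes. Of the 32 other ligand genes, 12 had a melatonin peak (37.5%, near the share of all genes) and 18 an untreated peak (56.2%). Signal carrier genes had 8 and 7 of 10 (80% and 70%), inhibitor genes 9 and 6 of 15 (60% and 40%) and target genes 5 and 4 of 7 (71.4% and 57.1%). The median body was 69 kb for signal carrier genes, 9.05 kb for ligand genes, 10.8 kb for inhibitor genes and 4.09 kb for target genes. Windows also overlap between Smad3 and Smad6, Lefty1 and Lefty2, and Inhbc and Inhbe. These shares were not adjusted for body length or shared windows.

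The most peaks within 200 kb were at Bmper, with 11 and 8. The TGF-beta type II receptor gene Tgfbr2 followed with 6 and 6, and Smad1, a BMP signal carrier gene, with 6 and 4. The activin and TGF-beta signal carrier gene Smad3 and the ligand gene Tgfb2 each had 3 and 5. None of these counts reached the 16 untreated peaks of Inhba. The 11 melatonin peaks of Bmper, though, were more than the 8 of Acvr2a, the most of any member.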

How the data were processed

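H3K36me2 was profiled by ChIP-seq in 2 libraries, each with its own input. Per the file headers, HOMER findPeaks called each library apart in its histone style: windows of 1000 bp, a Poisson threshold of 0.001, at least 4 times the input with a Poisson limit of 1e-04, and no local filter. Its version is not given in the sources used here. BWA 0.7.13, Picard 1.126 and MACS2 2.1.0 are named in the submitters' processing notes. Per the file headers, the normalized tag signal is scaled to 10000000 tags of the library. The authors scaled the ChIP and input tag signal in each peak to the shallower of the pair. The tag score, the ratio of ChIP to input (fold) and its unadjusted p-value are the authors' deposited values, and a clonal score was not used.

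The processing notes name mm39, but the last peaks on chromosomes 3 and 7 (159805034 and 145328623) end past those chromosomes in mm39. Peaks were shifted against the GRCm38.p6 RefSeq gene table in steps of 20 kb up to 200 kb. The share inside protein-coding genes was lowest at 0 kb overall and on chromosomes 1, 2, 3, 9, 13 and 14, which hold the members, so coordinates were read as GRCm38. Strand and start sites came from the RefSeq promoter table. Without a genome sequence, repeats, assembly gaps and the sequences of peaks were not considered.

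Features overlapped where they shared 1 bp or more. Counts, ratios (melatonin over untreated) and 95% intervals (exact Poisson for counts, exact binomial for ratios and shares) were computed with Python 3.11.15 and scipy 1.17.1, and the counting was tested on simulated peaks. All members are named, as are pathway genes with a peak in the body or 2 kb flanks, the 5 with the most peaks within 200 kb, protein-coding genes in the Inhba megabase and the 5 genes nearest to Inhba in both counts. Predicted genes and genes within 1 Mb of a member were left out of the last group. Other genes are named where a peak lies in them or as neighbours with overlapping windows. Up to 3 peaks per member and library are given, by nearness, with a few more chosen after their values were seen. The members and lists were chosen with earlier results of these data known. Alternatives were other flanks, stricter thresholds, equal numbers of peaks, midpoints, merged peaks, summed tags and other edges of the region.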

Additional observations from a re-analysis of the deposited data

How the results depend on the processing

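No paired analysis was possible because each condition has 1 ChIP library, and for the same reason no library could be left out. Of 48 alternative values, 36 stayed on the same side and within the interval or 1.5 times of the value given, 8 moved and 4 changed direction. The ratio of peaks near the members, 0.844, became 1.07 with a flank of 100 kb, 3.67 at a fold of at least 6 (11 and 3 peaks), 1.07 with the lists cut to their 3849 lowest p-values and 1.25 without Inhba, an alternative added after seeing the data. It was 0.743 with a flank of 500 kb. The ratio in the Inhba megabase, 0.327, became 0.714 at a fold of at least 6 (10 and 14 peaks) and ran from 0.327 to 0.424 otherwise. Members with a peak within 200 kb numbered 4 with melatonin at a flank of 100 kb, and 2 without melatonin at a fold of at least 6. At that fold no member kept an untreated peak in the body or 2 kb flanks, a count of 0. Shared sites near members, 2 in number, became 5 with a flank of 500 kb and 0 at a fold of at least 6, 0 with equal numbers of peaks and 0 where the overlap had to reach 50% of the shorter peak. The causes were not tested. Fold depends on input tags, with list medians of 3.5 and 3.9 per peak, which limits its precision.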
